A study of Mus musculus with 3 samples.

Results

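Semaphorins, their plexin and neuropilin receptors, and the Plxdc genes were followed in RNA of sorted mouse olfactory cells. The members were picked from the table by a pattern of gene names, and 33 of the 34617 rows of the deposited table matched: 20 semaphorins, 9 plexins, 2 neuropilins and the 2 plexin domain containing genes Plxdc1 and Plxdc2. Each group has 1 library from the main olfactory epithelium of 4-week-old mice. The mOSN library was made from EGFP-positive cells of C57BL/6J mice that carry OMP-ires-EGFP, a reporter at Omp, the gene of olfactory marker protein, which marks mature olfactory sensory neurons. The O/Tet3 library was made from sorted cells of Fvb mice in which the OMP-tTA driver switches on a tetO-Tet3-GFP transgene. Tet3 oxidises 5-methylcytosine to 5-hydroxymethylcytosine, and the study asked what this mark does in these neurons. The mOSN mice carry neither the tTA driver nor the transgene and are of another strain, so that Tet3, driver, strain and library cannot be told apart.

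Semaphorins are secreted or membrane-bound guidance cues that steer axons. Plexins are their signalling receptors, and class 3 semaphorins reach plexins mostly through the co-receptors Nrp1 and Nrp2. In the olfactory system, Nrp1 with Sema3a and Nrp2 with Sema3f are known for sorting sensory axons on their way to the olfactory bulb, and Sema7a is known as a cue that these axons carry to their targets.

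The deposited numbers are log2(value + 1), and the values given here are the linear ones, which have the form of Cuffdiff's FPKM, a measure per transcript length. The file does not name the unit, so levels set side by side between genes rest on that reading. The 6 highest rows of each library held 90.0% of the summed value in mOSN and 96.9% in O/Tet3. Values were taken as deposited, and the part of this make-up in differences between the libraries was not tested. With 1 library per group no value has an error, no test between the groups was possible, and every difference describes these libraries only. The read depth is unknown, but low values moved in steps that put 1 read at a 1.88-fold larger value in O/Tet3, so that low values there rest on fewer reads. The transgene was seen: Tet3 was at 3.72 in mOSN against 145 in O/Tet3. Omp was at 298 in mOSN against 139 in O/Tet3. The 11 markers of mature olfactory neurons summed to 3212 in mOSN against 772 in O/Tet3. Of these markers, 10 were at least 2-fold lower, counted on value + 1, and none was listed at 0. All 11 were at 1 or more in both libraries, where 6.50% of such rows were lower by the same rule. In bulk samples, fewer cells of a type and less RNA per cell cannot be told apart.

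Of the 33 members, 21 reached a value of 1 in at least 1 library and were compared, among them all 9 plexins, both neuropilins and 10 semaphorins. In O/Tet3, 9 of the 21 were at least 2-fold lower and 1 was at least 2-fold higher, counted on value + 1. The lower members were Sema7a, Sema4c, Sema4d, Sema4g, Nrp1, Plxna1, Plxna3, Plxna4 and Plxnb2, and the higher one was Sema3a. Over all 12943 compared rows, 12.0% were lower and 16.5% higher by the same rule. Without the rows of olfactory receptors, 8.70% were lower. Centred on the median ratio of the rows at 1 or more in both libraries, 15.1% of rows were lower and 11.3% higher, and the family counts stayed at 9 and 1, with the same members. Counts of members that passed through 1 library are partly set by that floor: Sema7a, Sema4c and Sema4g reached 1 in mOSN alone, and Sema3a in O/Tet3 alone. Among the 13 members at 1 or more in both libraries, 6 were lower and 0 higher, where 6.50% of the 9934 such rows were lower and 13.1% higher. The log2 ratio, O/Tet3 over mOSN on value + 1, had a median of −0.44 over the 10 compared semaphorins and −0.56 over the 11 receptors, against 0.21 over all compared rows.

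**Figure D1:**
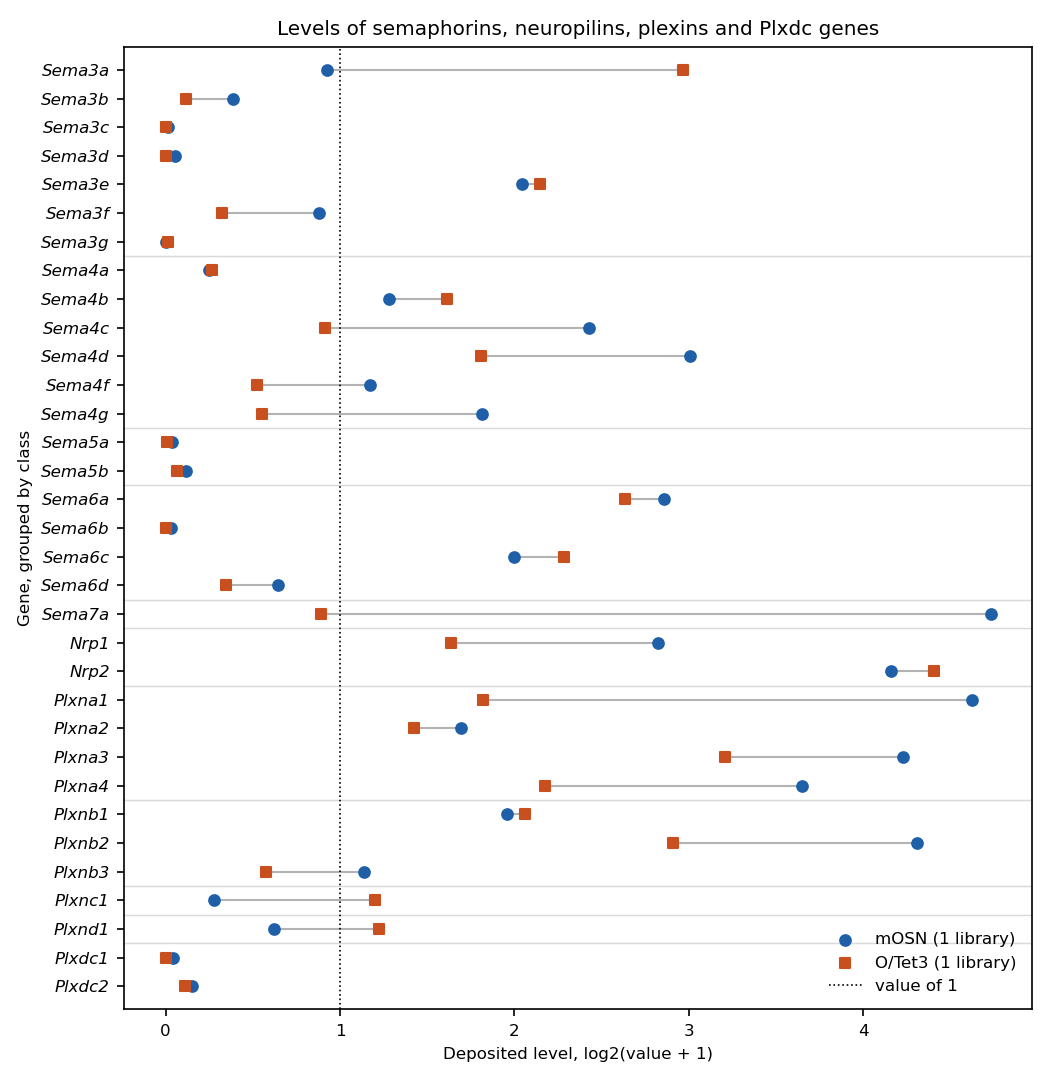
Level of each of the 33 members in the 2 libraries on the log2(value + 1) scale (blue circles, mOSN; orange squares, O/Tet3; 1 library each), grouped by class, with a dotted line at a value of 1. The longest gaps belong to Sema7a, from 25.6 to 0.854, and Plxna1, from 23.7 to 2.53, while Sema3a lies the other way, from 0.902 to 6.83.

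Class 3 semaphorins, the secreted ones, were mostly at low levels, and 2 of 7 were compared. Sema3a, a repellent for axons with Nrp1, was at 0.902 in mOSN against 6.83 in O/Tet3, a 7.57-fold higher value (log2 ratio 2.04). It stood above 11.1% of compared rows in mOSN and above 60.2% in O/Tet3, and became the highest semaphorin there. Beside it, the immature neuron markers Gap43, at 6.41 and 34.8, and Stmn1, at 6.72 and 34.7, were also higher, whereas Dcx, at 29.0 and 19.1, and Tubb3, at 23.6 and 13.7, were not. Within 2-fold of value + 1, Gng8, at 0.327 and 1.60, and Stmn2, at 27.7 and 39.3, had higher values. Ncam1, at 82.7 and 51.7, had a lower one within the same limit. Of the 7 immature markers, 2 were higher and 0 lower, where 16.5% of all compared rows were higher and 12.0% lower. None of the 7 was listed at 0, and their sums were 177 and 195. Their part in the Sema3a difference was not tested. Sema3e, which binds Plxnd1 without a neuropilin, was close in both libraries, at 3.12 and 3.43. The sign of this small difference turned with the same centring.

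The other 5 secreted semaphorins stayed below 1 in both libraries. Sema3f, the Nrp2 ligand, was at 0.839 and 0.251, just under the floor in mOSN. Sema3b was at 0.308 in mOSN against 0.0842 in O/Tet3. Sema3c and Sema3d were at 0.0107 and 0.0362 in mOSN but listed at 0 in O/Tet3, and Sema3g was listed at 0 in mOSN against 0.00900 in O/Tet3. No difference is read from these values.

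Class 4 semaphorins, which span the membrane and signal mainly through B plexins, had 3 lower members among the 5 compared. By the same rule, 12.0% of all compared rows were lower. Of the 2 class 4 members at 1 or more in both libraries, 1 was lower, where 6.50% of such rows were. Sema4d, the classic ligand of Plxnb1, was at 7.03 in mOSN against 2.51 in O/Tet3, 2.81-fold lower (log2 ratio −1.20). Sema4c, a Plxnb2 ligand, was at 4.39 and 0.883, 4.97-fold lower (−1.52). Sema4g, also a Plxnb2 ligand, was at 2.51 and 0.467, 5.38-fold lower (−1.26). Sema4c and Sema4g were compared through mOSN alone, where they were high, and were below 1 in O/Tet3. Sema4f, at 1.25 and 0.439, was 2.85-fold lower in its values, but its log2 ratio on value + 1, −0.65, did not reach the threshold. Sema4b went the other way within 2-fold, at 1.43 and 2.06. Sema4a, also known from immune cells, was below 1 in both, at 0.189 and 0.202. The immune cell markers were low beside it: none of 6 reached 1, and they summed to 1.35 and 0.506, with C1qb listed at 0 in both libraries and C1qa listed at 0 in O/Tet3.

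The other transmembrane semaphorins split into low genes and genes close in both libraries. Both class 5 members, which carry thrombospondin repeats, were near 0: Sema5a at 0.0256 and 0.00741, and Sema5b at 0.0849 and 0.0470. In class 6, whose members bind A plexins directly, Sema6a was at 6.25 and 5.20 and Sema6c at 2.99 and 3.88, both within 2-fold. Sema6d was at 0.564 and 0.269, and Sema6b at 0.0234 in mOSN but listed at 0 in O/Tet3. Sema6a was the second highest semaphorin in O/Tet3, after Sema3a.

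Sema7a, a semaphorin anchored to the membrane by a lipid, differed most of all members. It was at 25.6 in mOSN, the highest value in the family and above 91.5% of compared rows. In O/Tet3 it was at 0.854, above 9.83% of compared rows and 29.95-fold lower (log2 ratio −3.84). This fold lay beyond those of the mature neuron markers, which ran from 1.17 to 6.28 with a median of 3.88. It rests on a value below 1 in O/Tet3, where low values rest on fewer reads, so its size is uncertain. The markers were at 15.7 or more in O/Tet3. On value + 1, the lowest log2 ratio of a marker was −2.62, for Cnga2. Sema7a made up 44.5% of the summed semaphorin value in mOSN and 3.11% in O/Tet3. Sema3a made up 1.57% and 24.9%. The semaphorin sum was 57.5 in mOSN against 27.4 in O/Tet3.

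**Figure D2:**
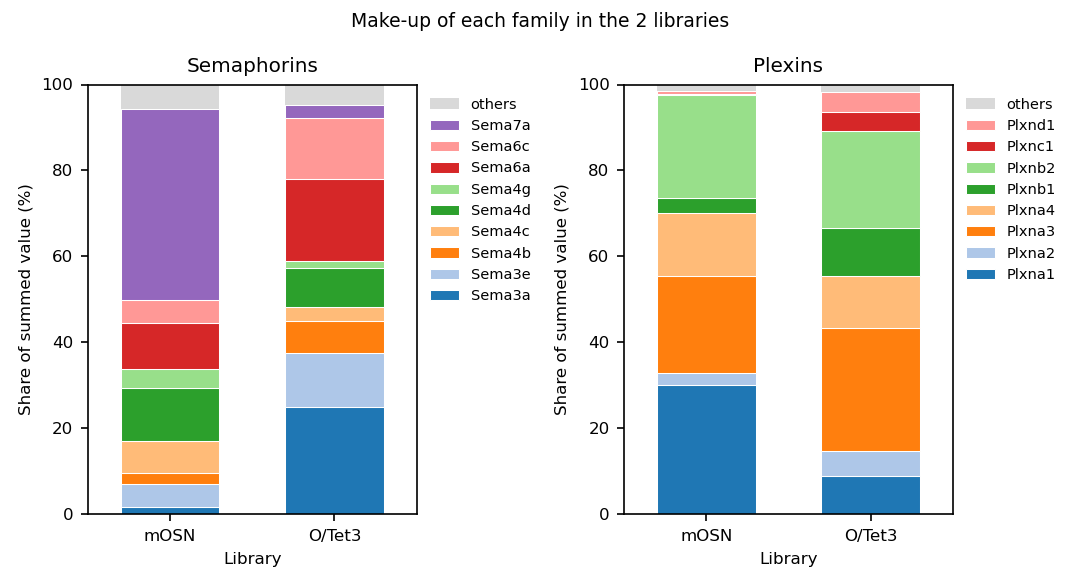
Share of each gene in the summed value of the 20 semaphorins (left) and the 9 plexins (right) in each library, in percent, with genes under 3% in both libraries joined as others. Sema7a takes 44.5% of the semaphorin sum in mOSN and 3.11% in O/Tet3, and Plxna1 takes 30.04% of the plexin sum in mOSN and 8.77% in O/Tet3.

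The 2 neuropilins parted. Nrp1 was at 6.09 in mOSN against 2.11 in O/Tet3, 2.88-fold lower (log2 ratio −1.19). Nrp2 was at 16.9 and 20.2 (log2 ratio 0.25) and was the highest family member in O/Tet3, above 86.2% of compared rows. Nrp2 therefore held 73.5% of the summed neuropilin value in mOSN and 90.6% in O/Tet3. The sum itself was nearly level, 22.98 and 22.4. Nrp1 is also known from vessels, where endothelial markers were low: none of 6 reached 1, they summed to 0.156 and 0.567, and Cdh5, Emcn and Cldn5 were listed at 0 in both libraries.

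Tet enzymes act on methylated cytosines, which lie mostly in CpG pairs. The CpGs before the start are shown for Sema7a, which differed most, for Sema3a, the only higher member, and for the parting neuropilins. Plxna1, which differed more than Sema3a, has no window in the source used. The windows are the 250 bases before the start in RefSeq, build GRCm38.p6, plus strand, in lower case with each CpG in capitals. They are chr9:57939862-57940111 for Sema7a, chr5:13396534-13396783 for Sema3a, chr8:128358823-128359072 for Nrp1 and chr1:62703067-62703316 for Nrp2.
Sema7a: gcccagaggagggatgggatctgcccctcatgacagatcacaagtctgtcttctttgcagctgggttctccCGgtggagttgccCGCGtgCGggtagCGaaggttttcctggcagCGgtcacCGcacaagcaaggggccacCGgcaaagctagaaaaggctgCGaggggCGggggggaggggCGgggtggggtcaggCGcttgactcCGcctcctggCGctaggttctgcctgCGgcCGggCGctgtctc
Sema3a: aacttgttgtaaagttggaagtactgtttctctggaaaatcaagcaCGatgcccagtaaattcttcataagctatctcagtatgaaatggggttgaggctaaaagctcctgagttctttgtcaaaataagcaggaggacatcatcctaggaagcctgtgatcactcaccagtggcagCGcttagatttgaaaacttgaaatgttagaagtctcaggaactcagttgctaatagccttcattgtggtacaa
Nrp1: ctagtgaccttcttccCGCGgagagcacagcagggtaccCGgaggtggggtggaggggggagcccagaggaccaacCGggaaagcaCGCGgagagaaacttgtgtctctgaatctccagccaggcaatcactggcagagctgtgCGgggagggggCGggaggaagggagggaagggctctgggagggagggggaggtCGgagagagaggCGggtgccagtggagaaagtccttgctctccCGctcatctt
Nrp2: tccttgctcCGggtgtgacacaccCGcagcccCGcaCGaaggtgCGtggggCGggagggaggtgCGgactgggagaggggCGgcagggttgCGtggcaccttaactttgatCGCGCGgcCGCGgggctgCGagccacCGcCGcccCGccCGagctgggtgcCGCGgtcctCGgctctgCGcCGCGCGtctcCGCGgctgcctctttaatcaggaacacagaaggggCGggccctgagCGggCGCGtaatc

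These windows held 17 CpGs for Sema7a, 2 for Sema3a, 11 for Nrp1 and 32 for Nrp2. Of the 32851 windows of all genes, 92.1% held at least 1 CpG, and the median was 6. The Sema7a window had more than 76.5% of them, that of Sema3a more than 18.8%, that of Nrp1 more than 64.4% and that of Nrp2 more than 95.4%. For Sema3a the table gives a single start, which lies inside the gene, and other starts were not looked at. Of the members, 26 had 37 windows, with 0 to 39 CpGs and a median of 13. CpG-rich starts lay before members that were lower (Sema4g, 24), close in both libraries (Plxnb1, 30) and hardly detected (Sema3c, 39). The 3 windows of Sema4d, a lower member, held 1 or 2. CpG number is a property of the sequence, and methylation at these windows was not analysed here.

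A plexins, the partners of neuropilins and of class 6 semaphorins, were lower in 3 of 4 genes. All 4 were at 1 or more in both libraries, where 6.50% of such rows were lower. Plxna1 was at 23.7 in mOSN, the second highest value of the family, against 2.53 in O/Tet3, 9.37-fold lower (log2 ratio −2.81). Plxna4 was at 11.5 and 3.52, 3.27-fold lower (−1.47). Plxna3 was at 17.7 and 8.26, 2.15-fold lower, and its log2 ratio of −1.02 lay just past the threshold. Plxna2, the lowest A plexin in both libraries, was at 2.24 and 1.68, within 2-fold. The summed A plexin value was 55.2 and 16.0. The order of the 4 was Plxna1, Plxna3, Plxna4 and Plxna2 in mOSN, and Plxna3, Plxna4, Plxna1 and Plxna2 in O/Tet3. Of the family's lower members, Plxna1 and Sema7a alone had folds above the 6.28 of the most lowered mature neuron marker. The other 7 lay between 2.15 and 5.38. A member called lower is more than 2-fold lower by the rule, so the low end of these folds was set in advance. Whether the lower members follow the mature markers was not tested.

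B plexins, the main receptors of class 4 semaphorins, differed from gene to gene. Plxnb2 was at 18.8 in mOSN against 6.53 in O/Tet3, 2.88-fold lower (log2 ratio −1.40). Plxnb1 was close in both, at 2.89 and 3.17, and the sign of its small ratio of 0.10 turned with centring. Plxnb3 was at 1.20 and 0.491 (−0.56). Plxnb2 had the highest value of the 3 in both libraries, and their sum was 22.9 in mOSN against 10.2 in O/Tet3.

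The single C and D plexins were the only plexins to reach 1 in O/Tet3 alone. Plxnc1, the receptor of Sema7a, was at 0.213 and 1.29, a 6.08-fold higher value whose log2 ratio on value + 1, 0.92, lay just inside the threshold. Plxnd1, the receptor of Sema3e and a gene of vessels, was at 0.537 and 1.33 (0.60). Of the 6 endothelial markers, Pecam1 was at 0.121 and 0.508, Tek at 0.0208 and 0.0589 and Kdr at 0.0139 and listed at 0, and the other 3 were listed at 0 in both libraries. Their part in the Plxnd1 value was not tested. With a pseudocount of 0.1 both genes passed the threshold as higher. Plxdc1 and Plxdc2, membrane proteins that share a domain with plexins, stayed low: Plxdc1 at 0.0307 in mOSN but listed at 0 in O/Tet3, Plxdc2 at 0.109 and 0.0793.

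**Figure D3:**
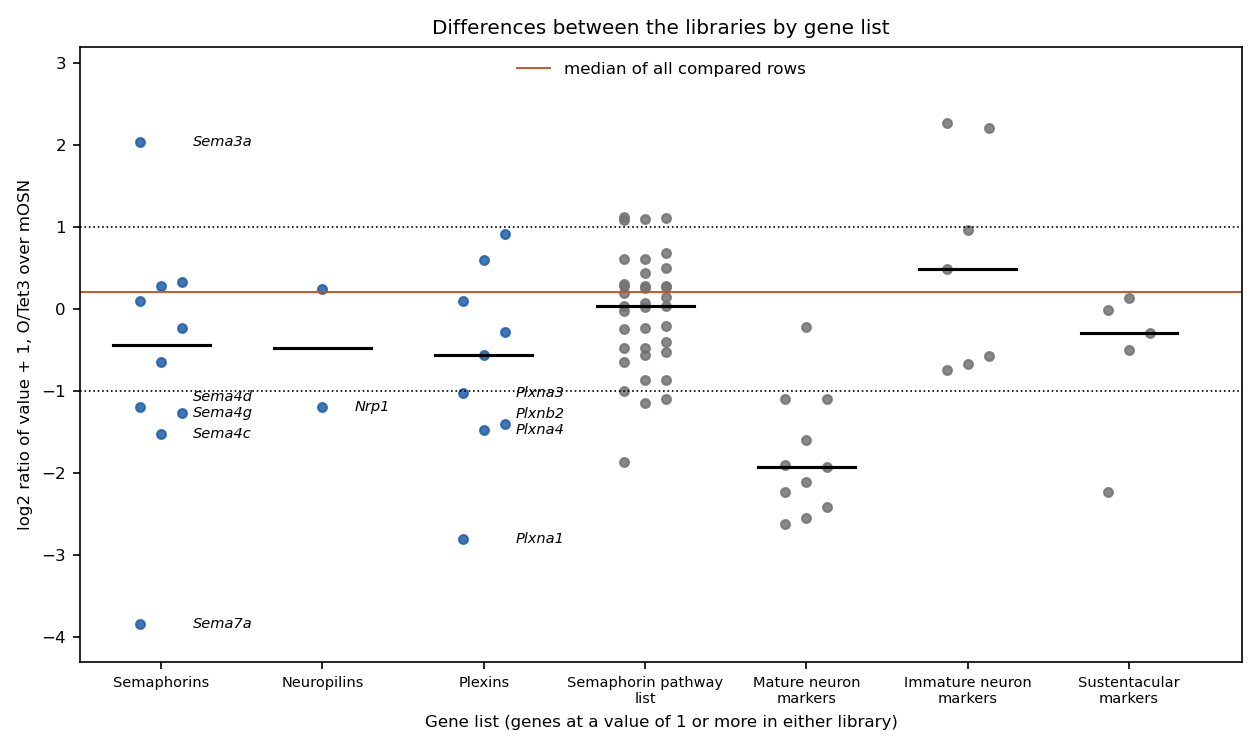
Log2 ratio of value + 1, O/Tet3 over mOSN, for each gene at a value of 1 or more in either library (points), by gene list, with the median of each list (black bar), the 2-fold thresholds (dotted) and the median of all compared rows (orange line, 0.21). Sema7a, at −3.84, and Plxna1, at −2.81, lie below every mature neuron marker, and Sema3a is the only member above 1.

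Ligands were then set beside their receptors in 35 pairs taken from general knowledge. Both partners were at 1 or more in 7 pairs in mOSN and in 11 in O/Tet3, and 5 pairs were in both counts. These 5 were Sema4d with Plxnb1 and with Plxnb2, Sema6a with Plxna2 and with Plxna4, and Sema6c with Plxna1. The 2 pairs counted in mOSN alone were Sema4c and Sema4g with Plxnb2, where the ligand was below 1 in O/Tet3. Plxnb2 was lower as well, at 18.8 in mOSN and 6.53 in O/Tet3, but above 1 in both. The 6 counted in O/Tet3 alone were Sema3a with Nrp1 and with each of the 4 A plexins, and Sema3e with Plxnd1. Since 5 of these share Sema3a, which was at 0.902 in mOSN, their count turns on a single gene near the floor. At a floor of 5 for both partners the numbers of pairs were 2 and 1.

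Within pairs, ligand and receptor differed in the same or in opposite directions. Sema4d and Plxnb2 were both lower, from 7.03 to 2.51 and from 18.8 to 6.53. Sema3a was higher, and of its listed receptors Nrp1, Plxna1, Plxna3 and Plxna4 were lower and Plxna2 was within 2-fold. Sema7a and Plxnc1 lay opposite as well, since mOSN had the ligand at 25.6 and the receptor at 0.213, and O/Tet3 had them at 0.854 and 1.29. For Nrp2, at 16.9 and 20.2, none of the listed ligands Sema3b, Sema3c, Sema3f and Sema3g reached 1 in either library. Ligands made by cells outside the sort were not measured.

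**Figure D4:**
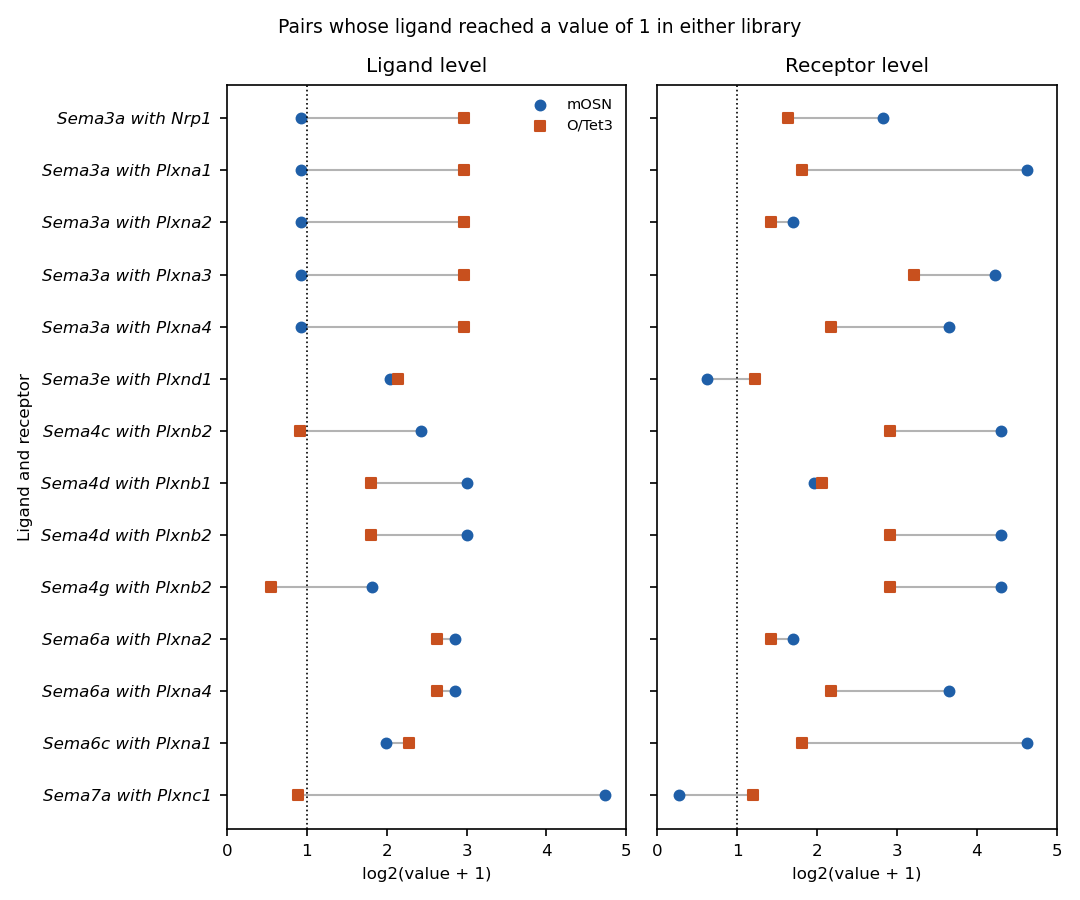
Ligand (left) and receptor (right) levels on the log2(value + 1) scale for the pairs whose ligand reached a value of 1 in either library (blue circles, mOSN; orange squares, O/Tet3; 1 library each; dotted line, a value of 1). The Sema3a rows show the ligand higher in O/Tet3, Nrp1, Plxna1, Plxna3 and Plxna4 lower and Plxna2 within 2-fold, and the Sema7a row shows the ligand at 25.6 and 0.854 with Plxnc1 at 0.213 and 1.29.

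Downstream and partner genes of the pathway were followed in a list of 65. Of 37 compared, 4 were higher and 4 lower, and their median log2 ratio was 0.04, against 16.5% of all compared rows higher and 12.0% lower. With ratios centred on the median of the rows at 1 or more in both libraries, a shift of 0.21, 0 were higher and 6 lower. Of the collapsin response mediators, which carry the signal of Sema3a to the cytoskeleton, Dpysl5 was lower, at 7.98 and 1.46, and Dpysl3 higher, at 3.23 and 8.22. Crmp1, at 7.83 and 3.87, and Dpysl2, at 26.2 and 22.1, were within 2-fold of value + 1. Of the Mical enzymes, which bind A plexins and take actin filaments apart, Mical2 was lower at 16.1 and 6.74, and Mical3, at 11.8 and 5.40, lay at the threshold.

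GTPases and kinases of the pathway were mostly within 2-fold. Rac1, a GTPase that plexins bind, was at 7.22 and 16.8 and was the only one of 13 compared GTPases and regulators to be called. Rhoa, the highest of them in mOSN, was at 31.9 and 27.7, Arhgef12, an exchange factor of B plexins, at 18.8 and 11.7, Rras2 at 0.465 and 1.36, and Rac3 at 1.58 and 0.796. Of 14 compared kinases and scaffold proteins, Pak1, an effector of Rac, was lower at 12.4 and 5.27, and Fes, a kinase that plexins activate, was higher at 0.156 and 1.45. Gsk3b was at 32.5 and 17.5 and the actin-severing protein Cfl1 at 47.2 and 73.0, both within 2-fold. Of alternative receptors and co-receptors, 3 of 17 were compared. Itgb1, the integrin subunit that Sema7a also engages, was higher at 5.60 and 13.2. L1cam, a partner of Nrp1, was at 2.96 and 1.70, and Cd72, a receptor of Sema4d, at 1.57 and 1.65. Of the growth factors that bind neuropilins, Vegfb alone was compared, at 1.09 and 1.14.

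The order of the family's levels was only partly shared. Spearman's rank correlation between the libraries was 0.42 over the 21 compared members and 0.83 over all 33, where the low genes rank low in both; the points share the same 2 libraries. The highest 5 in mOSN were Sema7a, Plxna1, Plxnb2, Plxna3 and Nrp2. In O/Tet3 they were Nrp2, Plxna3, Sema3a, Plxnb2 and Sema6a. Markers of other cells differed beside the family. The 7 sustentacular markers summed to 39.1 in mOSN against 22.7 in O/Tet3; Ugt2a1, at 15.6 and 2.53, was the 1 called lower, Cyp2a5 was at 11.6 and 9.29, and Cyp1a2 was listed at 0 in O/Tet3. The 6 ensheathing glia markers summed to 7.73 and 1.57, with Fabp7 lower, at 4.78 and 0.0607, and S100b, Sox10 and Frzb listed at 0 in O/Tet3. Of the 4 microvillous markers, which summed to 3.56 and 3.44, Ascl3 and Cftr were at 1.58 and 1.02 in mOSN but listed at 0 in O/Tet3, while Pou2f3, at 0.582 and 2.90, was higher. The 4 red blood cell markers summed to 60.2 and 39.8, with none called. The markers of horizontal basal cells (4, all listed at 0 in O/Tet3), Bowman gland cells (5) and fibroblasts (6) did not reach 1 in either library; they summed to 0.207, 1.37 and 0.522 in mOSN, and the gland and fibroblast markers to 0.849 and 0.406 in O/Tet3. Their part in the family's values was not tested. RefSeq places another gene across 16 of the 33 members, and 6 of these 19 overlapping genes have a row of their own, none above 0.214.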

How the data were processed

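RNA of sorted cells was depleted of ribosomal RNA (RiboMinus) and made into libraries with ScriptSeq, per the labels' protocols. Bowtie, Bowtie2, Cuffdiff and build mm9 are named, without versions or roles, per the submitters' processing notes; annotation and strand setting are not given in the sources used here. The authors' deposited table holds log2(value + 1) per library and their difference. Raising 2 to the deposited log2 value and subtracting 1 gave at most 6 significant digits in 99.4% (mOSN) and 99.3% (O/Tet3) of values above 0.01. The columns omp and ott3 were matched to samples by their names. The design assumed linear values; the same ratio follows from the log2 columns.

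A row was compared when it reached a value of 1 in at least 1 library and called at a log2 ratio of value + 1 of at least 1 in size; no p-value was computed. The read step is the most frequent log2 ratio of 5146 rows with a value under 0.3. The calling step was run on a noise-free copy of the mOSN values with planted changes beyond the threshold. That run checks the code and cannot tell how reliable calls from 1 library per group are. Named genes were all members, and in each pathway sublist up to 4 with the largest ratio in size plus the highest in mOSN. Members and lists were chosen with earlier results of these data known, and the ligand pairs come from general knowledge. Alternatives were another pseudocount, floors, a 3-fold threshold, centring, and rows at 0 left out; a floor in both libraries was chosen after seeing the data. The immunoprecipitated DNA sample was not analysed here. Python 3.11.15, pandas 2.3.3, numpy 2.4.6 and scipy 1.17.1 were used.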

Additional observations from a re-analysis of the deposited data

How the results depend on the processing

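No paired analysis was possible because there is a single library on each side, which also leaves every result without a replicate check. The 9 lower members were 9 with centring, 11 with a pseudocount of 0.1 (adding Sema4f and Plxnb3) and 7 at a floor of 5. They were 6 at a floor of 1 in both libraries and 2 (Sema7a and Plxna1) at 3-fold. With no floor, and without rows listed at 0, the counts of 9 lower and 1 higher stayed by construction. A call on value + 1 needs a value of at least 1 in 1 library, and no compared member was listed at 0. The 1 higher member, Sema3a, was joined by Plxnc1 and Plxnd1 (3) with a pseudocount of 0.1, and 0 were higher at a floor of 1 in both libraries, by construction; the other alternatives gave 1. The semaphorin median of −0.44 became −0.79 with a pseudocount of 0.1, −0.71 at a floor of 5, −0.051 with no floor and −0.64 centred. The receptor median of −0.56 became −1.09 with a pseudocount of 0.1, −1.29 at a floor of 5 and −0.77 centred. Pathway genes higher fell from 4 to 0 at 3-fold and to 0 centred, and lower from 4 to 1 at 3-fold, a stricter threshold by construction. Pairs with both partners present went from 7 to 2 in mOSN and from 11 to 1 in O/Tet3 at a floor of 5. Of the 21 single log2 ratios, 2 changed sign with centring (Sema3e and Plxnb1, neither called). With a pseudocount of 0.1, 0 changed sign by construction, since a pseudocount cannot turn the sign of a ratio. Apart from floors, thresholds and centring, the cause was not tested. Fewer reads per unit of value in O/Tet3 limit what can be said of the members below 1.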
